A study of Mus musculus with 11 samples.

Results

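The genes described here are 8 markers of Schwann cells and other glia, Gpm6b, Fabp7, Mbp, S100b, Ngfr, Pmp22, Egr2 and Gap43, of the 18756 mouse genes counted by RNA sequencing in 11 skin tumours. They were taken by their mouse symbols, each of which matched 1 gene ID. All 8 passed the filter on low counts, Fabp7 only through libraries of GNA11 Q209L and BRAF V600E Bap1 KO. The tumours came from C57BL/6 mice carrying 1 of 3 engineered genotypes and were taken at the end point. Of the 11 libraries, 5 were labelled GNA11 Q209L Bap1 KO, 2 were labelled GNA11 Q209L and 4 carried the label BRAF V600E Bap1 KO. GNA11 Q209L is an activated G protein subunit found in uveal melanoma, BRAF V600E an activated kinase found in cutaneous melanoma, and Bap1 encodes a nuclear deubiquitinase that acts as a tumour suppressor. The deposited table marks the Bap1 KO libraries as carrying a floxed Bap1 on both alleles and GNA11 Q209L as wild type for it. The sources used here do not give the promoter that drives the Cre recombinase, the sex, litter and age of the mice or the share of tumour cells in each sample. No label says that replicates came from separate mice, and GNA11 Q209L Bap1 KO replicates 1 and 2 share an animal-style identifier, so the p-values measure the spread between these libraries only.

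Schwann cells are the glia of peripheral nerves and arise, like melanocytes, from the neural crest, in part through a shared precursor that travels along nerves. The transcription factor Sox10 is needed by both lineages, and Egr2 (Krox20) then switches Schwann cells to myelination, with Mbp, Pmp22 and other proteins building the sheath. After nerve injury Schwann cells lose myelin genes and take up Ngfr and other genes of an immature or repair state, and melanoma cells that lose pigment genes can express neural crest and Schwann cell genes as well.

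Total counts per library ran from 18338100 to 81035100, so that 3 counts correspond to between 0.0337 and 0.166 CPM (a count divided by the TMM-scaled library size), and this floor covers counting error only. The count over the whole Bap1 gene averaged 121 ± 29.7 CPM in GNA11 Q209L Bap1 KO tumours (SD, n = 5), 111 ± 36.8 CPM in GNA11 Q209L tumours (SD, n = 2) and 60.9 ± 7.27 CPM in BRAF V600E Bap1 KO tumours (SD, n = 4). A count over a whole gene does not show whether the floxed exons were lost, and the sources used here do not give their positions, so it checks nothing. A repeated header line at the end of the deposited table gives the Bap1 status of BRAF V600E Bap1 KO replicates 2 and 4 as NA, against floxed in the first header and KO in the labels. Transgene lines also differed within and between genotypes. The hFLPe line held 12 counts in BRAF V600E Bap1 KO replicate 3, against 6618, 3353 and 3987 in replicates 1, 2 and 4. The CreERT2 line held 708 counts there, against 15, 6 and 21. In the libraries with GNA11 Q209L it held between 2904 and 13760 counts. It thus followed the oncogene, and the 2 cannot be told apart. The hFLPe line held 1 count in GNA11 Q209L Bap1 KO replicate 3 and in each GNA11 Q209L library. In GNA11 Q209L Bap1 KO replicates 1, 2, 4 and 5 it held 1244, 659, 3242 and 7563. The part of these sequences in any difference was not tested. Melanocyte markers were abundant in the tumours with GNA11 Q209L and near absent in the others. The 8 melanocyte markers summed to between 76500 and 100000 CPM in GNA11 Q209L Bap1 KO tumours, 68100 and 65900 CPM in GNA11 Q209L tumours, and between 48.8 and 188 CPM in BRAF V600E Bap1 KO tumours. BRAF V600E Bap1 KO replicate 4 also held salivary gland transcripts, whose 4 markers summed to 175000 CPM there and to 9.82 CPM or less in the 3 other libraries of that genotype. In such bulk samples fewer cells of a type and less RNA per cell cannot be told apart.

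The GNA11 Q209L Bap1 KO tumours held little of the membrane glycoprotein Gpm6b, the fatty acid binding protein Fabp7 and the growth-associated protein Gap43. Of these, only Gpm6b lay below every library of the other genotypes. Against BRAF V600E Bap1 KO, 4 of the 8 genes were lower by edgeR's quasi-likelihood test with Benjamini-Hochberg adjustment over all 17350 genes tested at a threshold of 0.05. These were Gpm6b, Gap43, Egr2 and Fabp7, and none was higher. The share of all genes tested that fell in this comparison was 24.7%, the share that rose was 16.5% and the share called in either direction was 41.2%. Against GNA11 Q209L, edgeR called none of the 8 genes, where it called 0.0288% of all genes tested and 0.0231% as lower, although Gpm6b was about 10-fold lower in mean CPM and Fabp7 17.6-fold lower and neither overlapped between the genotypes. Between GNA11 Q209L and BRAF V600E Bap1 KO, where 15.2% of all genes were called and 5.93% fell, Gap43 alone passed, lower in GNA11 Q209L.

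**Figure D1:**
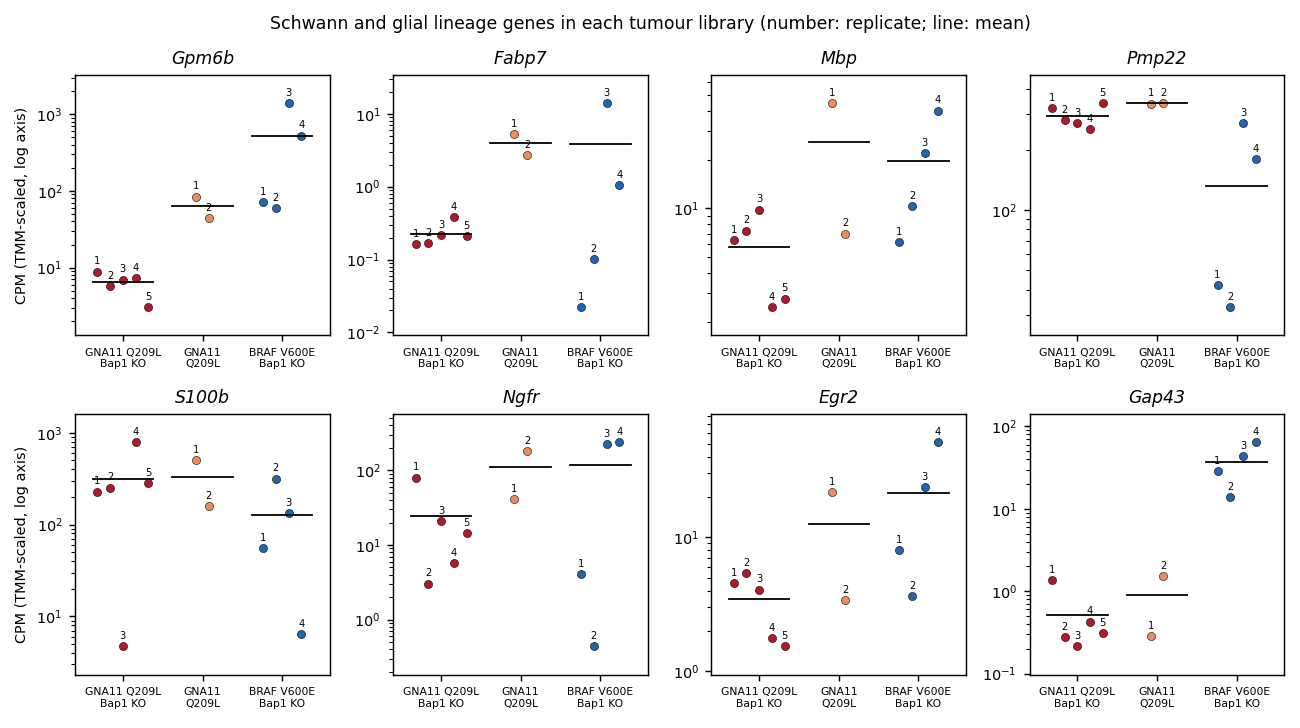
CPM of the 8 genes on log axes, with 1 point per library, the replicate number above it and a line at the genotype mean, for GNA11 Q209L Bap1 KO, GNA11 Q209L and BRAF V600E Bap1 KO from left to right. Gpm6b lies between 3.09 and 8.85 CPM in all 5 GNA11 Q209L Bap1 KO libraries, below every other library, and Gap43 lies between 13.8 and 64.1 CPM in BRAF V600E Bap1 KO, above every other library.

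Gpm6b encodes a membrane glycoprotein made in neurons and in myelinating glia. It stood at 8.85, 5.75, 6.98, 7.38 and 3.09 CPM in GNA11 Q209L Bap1 KO replicates 1 to 5, at 84.5 and 44.1 CPM in GNA11 Q209L tumours, and at 71.0, 60.0, 1400 and 526 CPM in BRAF V600E Bap1 KO replicates 1 to 4. Every GNA11 Q209L Bap1 KO library lay below every library of the other 2 genotypes, and BRAF V600E Bap1 KO replicates 3 and 4 were the high ones. The means were 6.41 ± 2.16 CPM in GNA11 Q209L Bap1 KO tumours, 64.3 ± 28.5 CPM in GNA11 Q209L tumours and 515 ± 631 CPM in BRAF V600E Bap1 KO tumours (SD, n = 5, 2 and 4, as for all means below). The highest and the middle of these overlapped, and their difference did not pass (log2 fold change of GNA11 Q209L over BRAF V600E Bap1 KO -3.00 ± 1.20 (SE), edgeR adjusted p = 0.101). The log2 fold change of GNA11 Q209L Bap1 KO over BRAF V600E Bap1 KO was -6.33 ± 0.96, edgeR adjusted p = 0.00128, which is 80.3-fold in means. Without BRAF V600E Bap1 KO replicate 3 that log2 fold change was -5.11, edgeR adjusted p = 0.00154. Against GNA11 Q209L it was -3.33 ± 0.93, edgeR adjusted p = 0.249. DESeq2 called that difference (adjusted p = 0.0298), as did edgeR fitted on those 2 genotypes alone (adjusted p = 0.0274).

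Markers of other cells also stood apart. The 6 fibroblast markers summed to 2190, 1380, 400, 456 and 286 CPM in GNA11 Q209L Bap1 KO tumours, to 11100 and 2830 CPM in GNA11 Q209L tumours and to 3410, 3080, 18200 and 11600 CPM in BRAF V600E Bap1 KO tumours, so that GNA11 Q209L Bap1 KO lay below both other genotypes without overlap. All 6 fell in GNA11 Q209L Bap1 KO over BRAF V600E Bap1 KO (median log2 fold change -4.37), where 24.7% of all genes fell. None of the 6 was called in GNA11 Q209L Bap1 KO over GNA11 Q209L (median -2.92). The 5 T cell markers all fell in GNA11 Q209L Bap1 KO over BRAF V600E Bap1 KO as well (median -3.21), with sums of 1.68 to 4.76 CPM in GNA11 Q209L Bap1 KO tumours against 7.12 to 47.8 CPM in BRAF V600E Bap1 KO tumours. Summed, the 6 markers of central glia went the other way. Their sums were 4.79, 17.5, 34.9 and 47.7 CPM for BRAF V600E Bap1 KO replicates 1 to 4. Every library with GNA11 Q209L lay higher, the lowest being GNA11 Q209L replicate 1 at 65.3 CPM. Aldh1l1 was most of the mean sum for GNA11 Q209L Bap1 KO (140 of 142 CPM). Of the 3 tested, 1 rose and 1 fell in GNA11 Q209L Bap1 KO over BRAF V600E Bap1 KO (median 1.9). The human GNA11-Q209L sequence stood between 6.51 and 17.4 CPM in GNA11 Q209L Bap1 KO tumours, against 22.9 and 125 CPM in GNA11 Q209L tumours. The part of these in the Gpm6b result, or in the other calls of GNA11 Q209L Bap1 KO over BRAF V600E Bap1 KO, was not tested.

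The RefSeq promoter table lists 1 start site of Gpm6b (GRCm38.p6, not the mm9 build of the counts), at the end of chrX:166238693-166238942 on the plus strand. The 250 bases before the start are shown because Gpm6b separates GNA11 Q209L Bap1 KO from all other libraries. Capitals mark ACAAAG, a core that SOX factors bind, with its first base 65 bases before the start.
Gpm6b: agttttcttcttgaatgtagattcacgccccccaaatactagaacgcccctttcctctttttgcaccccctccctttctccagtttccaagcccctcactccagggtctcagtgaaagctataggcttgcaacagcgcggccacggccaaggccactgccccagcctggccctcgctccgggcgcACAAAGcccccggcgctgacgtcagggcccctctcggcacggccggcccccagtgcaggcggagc
Promoters were searched from 250 bases before to 50 after the start, on both strands, for ACAAAG and AACAAT (SOX), GTGGGCG (EGR), CACGTG (E-box) and CATGTG (M-box core). Of 32851 mouse promoters of this length, 18.7% hold ACAAAG, 10.7% AACAAT, 7.97% GTGGGCG, 7.15% CACGTG and 14.2% CATGTG, so the match describes these letters only. No other of the 5 motifs was found in the Gpm6b window, and none in those of Fabp7, S100b, Ngfr and Pmp22.

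Egr2, the zinc finger transcription factor that starts and keeps up myelination, stood at 4.56, 5.42, 4.06, 1.76 and 1.54 CPM in GNA11 Q209L Bap1 KO tumours. It stood at 21.8 and 3.39 CPM in GNA11 Q209L tumours and at 7.97, 3.65, 23.6 and 51.2 CPM in BRAF V600E Bap1 KO tumours. The 3 highest libraries were BRAF V600E Bap1 KO replicates 4 and 3 and GNA11 Q209L replicate 1, and GNA11 Q209L Bap1 KO overlapped with both other genotypes. Relative to BRAF V600E Bap1 KO, GNA11 Q209L Bap1 KO had a log2 fold change of -2.64 ± 0.80 (SE), edgeR adjusted p = 0.0235. The adjusted p was 0.0833 without BRAF V600E Bap1 KO replicate 4 (log2 fold change -1.78), and 0.0518 and 0.0584 with GNA11 Q209L Bap1 KO replicate 4 or 5 left out. Egr2 also did not pass with limma voom (-2.12, adjusted p = 0.0886) or without the BRAF V600E Bap1 KO libraries given as NA in the repeated header (-2.18, adjusted p = 0.0607). Against GNA11 Q209L the log2 fold change was -1.87 ± 0.91 (edgeR adjusted p = 0.478), and 0.03 without GNA11 Q209L replicate 1. Its means were 3.47 ± 1.73 CPM in GNA11 Q209L Bap1 KO tumours, 12.6 ± 13 CPM in GNA11 Q209L tumours and 21.6 ± 21.5 CPM in BRAF V600E Bap1 KO tumours, and no neighbours in this order differed beyond their spread.

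RefSeq lists 5 start sites of Egr2. The first is shown because its window holds a match to the motif of Egr2's own family. It lies at the end of chr10:67535249-67535498, plus strand, GRCm38.p6. The capitals join 2 motifs that overlap, GTGGGCG read on the minus strand from 31 bases before the start and CACGTG from 27 bases before it.
Egr2: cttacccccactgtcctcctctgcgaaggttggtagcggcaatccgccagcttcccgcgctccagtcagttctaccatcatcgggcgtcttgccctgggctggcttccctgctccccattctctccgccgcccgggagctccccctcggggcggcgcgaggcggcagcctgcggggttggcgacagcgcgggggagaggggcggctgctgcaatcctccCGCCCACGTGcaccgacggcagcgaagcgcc
The windows of start sites 3 to 5 hold CATGTG, and that of the second none of the 5 motifs. These matches are descriptions and show no binding.

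Mbp, myelin basic protein of compact myelin, stood at 6.41, 7.30, 9.85, 2.48 and 2.78 CPM in GNA11 Q209L Bap1 KO tumours, at 44.6 and 7 CPM in GNA11 Q209L tumours, and at 6.17, 10.3, 22.0 and 40.0 CPM in BRAF V600E Bap1 KO tumours. The libraries high in Mbp were the same 3 that were high in Egr2, and all genotypes overlapped. The log2 fold change of GNA11 Q209L Bap1 KO over BRAF V600E Bap1 KO was -1.77 ± 0.68 (SE), edgeR adjusted p = 0.058, and over GNA11 Q209L -2.17 ± 0.79, edgeR adjusted p = 0.354. The first passed with DESeq2 (adjusted p = 0.0245), with scaling to total counts (0.0297), in edgeR on the 2 genotypes alone (0.0383) and without BRAF V600E Bap1 KO replicate 1 (0.0328). The means were 5.76 ± 3.13 CPM in GNA11 Q209L Bap1 KO tumours, 25.8 ± 26.6 CPM in GNA11 Q209L tumours and 19.6 ± 15.2 CPM in BRAF V600E Bap1 KO tumours. GNA11 Q209L was thus the highest, and no neighbours in the order differed beyond their spread. Gene counts may include the Golli transcripts, which start upstream and are also made outside glia.

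Those 3 libraries also stood apart in some other measures, though not in all. The deposited measure of 5' bias, which the table does not define, was 0.82 to 0.85 in GNA11 Q209L Bap1 KO tumours, 0.74 and 0.84 in GNA11 Q209L replicates 1 and 2, and 0.81, 0.78, 0.76 and 0.74 in the 4 BRAF V600E Bap1 KO libraries in replicate order. The fibroblast markers summed to 18200 and 11600 CPM in BRAF V600E Bap1 KO replicates 3 and 4, against 3410 and 3080 CPM in replicates 1 and 2. The 6 macrophage markers summed to 5930 CPM in GNA11 Q209L replicate 1, against 608 CPM in replicate 2. In BRAF V600E Bap1 KO replicates 1 to 4 they summed to 2110, 1250, 478 and 1260 CPM, so that replicates 3 and 4 were not the highest. BRAF V600E Bap1 KO replicate 4 also held the salivary gland transcripts described above and skeletal muscle markers at 5310 CPM. The part of these measures in the Egr2 and Mbp levels was not tested.

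Pmp22, a small membrane protein of compact myelin that many other cells also make, hardly varied among the tumours with GNA11 Q209L. It stood at 321, 281, 272, 253 and 341 CPM in GNA11 Q209L Bap1 KO tumours, at 339 and 341 CPM in GNA11 Q209L tumours, and at 42.1, 32.9, 272 and 179 CPM in BRAF V600E Bap1 KO tumours. BRAF V600E Bap1 KO replicates 1 and 2 were the low ones, and BRAF V600E Bap1 KO replicate 3 reached the level of GNA11 Q209L Bap1 KO. The means were 294 ± 36.3 CPM in GNA11 Q209L Bap1 KO tumours, 340 ± 1.67 CPM in GNA11 Q209L tumours and 132 ± 115 CPM in BRAF V600E Bap1 KO tumours, and the 2 highest overlapped, as did the 2 lowest. The log2 fold change of GNA11 Q209L Bap1 KO over BRAF V600E Bap1 KO was 1.16 ± 0.55 (SE), edgeR adjusted p = 0.113, and that of GNA11 Q209L over BRAF V600E Bap1 KO 1.37 ± 0.67, edgeR adjusted p = 0.162. The first passed with limma voom (adjusted p = 0.0414) and without BRAF V600E Bap1 KO replicate 3 (log2 fold change 1.78, adjusted p = 0.0269). The value for GNA11 Q209L Bap1 KO over GNA11 Q209L was -0.21 ± 0.66, edgeR adjusted p = 0.947.

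Fabp7, a fatty acid binding protein of radial glia and Schwann cell precursors, was near the floor of 3 counts in GNA11 Q209L Bap1 KO, at 0.163, 0.166, 0.216, 0.381 and 0.207 CPM. It stood at 5.31 and 2.68 CPM in GNA11 Q209L tumours and at 0.0225, 0.102, 14.0 and 1.05 CPM in BRAF V600E Bap1 KO tumours. Both GNA11 Q209L libraries were above all 5 of GNA11 Q209L Bap1 KO, whereas BRAF V600E Bap1 KO spanned the whole range, with 1 library far above the rest. Relative to GNA11 Q209L, GNA11 Q209L Bap1 KO had a log2 fold change of -4.12 ± 1.53 (SE), edgeR adjusted p = 0.354, which passed in edgeR on those 2 genotypes alone (adjusted p = 0.0274). There Fabp7 met the filter on low counts only through the GNA11 Q209L libraries, where it was high, which limits what that call shows. Relative to BRAF V600E Bap1 KO it was -4.04 ± 1.40, edgeR adjusted p = 0.0405, although the groups overlapped. Without BRAF V600E Bap1 KO replicate 3 it was -0.72 (adjusted p = 0.58), so the call rests on that library. With limma voom the value was -0.38 (adjusted p = 0.873), and with libraries sharing an identifier summed the adjusted p was 0.0795. Leaving out any of the 5 GNA11 Q209L Bap1 KO libraries gave an adjusted p between 0.0628 and 0.0846, and DESeq2 gave none for this gene. The means were 0.227 ± 0.0895 CPM in GNA11 Q209L Bap1 KO tumours, 3.99 ± 1.86 CPM in GNA11 Q209L tumours and 3.78 ± 6.80 CPM in BRAF V600E Bap1 KO tumours, and the 2 higher ones did not differ beyond their spread.

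S100b, a calcium-binding protein made by Schwann cells and astrocytes and used as a marker of melanoma, varied widely within every genotype. It stood at 229, 252, 4.76, 786 and 283 CPM in GNA11 Q209L Bap1 KO tumours, at 504 and 158 CPM in GNA11 Q209L tumours, and at 55.7, 317, 133 and 6.38 CPM in BRAF V600E Bap1 KO tumours. The low libraries were GNA11 Q209L Bap1 KO replicate 3 and BRAF V600E Bap1 KO replicate 4, and all genotypes overlapped. The means were 311 ± 288 CPM in GNA11 Q209L Bap1 KO tumours, 331 ± 245 CPM in GNA11 Q209L tumours and 128 ± 136 CPM in BRAF V600E Bap1 KO tumours, and no neighbours in their order differed beyond their spread. The log2 fold changes were -0.09 ± 1.38 for GNA11 Q209L Bap1 KO over GNA11 Q209L and 1.28 ± 1.15 for GNA11 Q209L Bap1 KO over BRAF V600E Bap1 KO (SE; edgeR adjusted p = 0.997 and 0.385). The sign of the first turned when GNA11 Q209L replicate 1 (0.98) or GNA11 Q209L Bap1 KO replicate 3 (0.23) was left out, and it was no longer negative without GNA11 Q209L Bap1 KO replicate 1.

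Ngfr, the p75 neurotrophin receptor of immature and repair Schwann cells and of neural crest-like melanoma cells, ran over a similarly wide range. It stood at 80.1, 3.04, 20.7, 5.67 and 14.3 CPM in GNA11 Q209L Bap1 KO tumours, at 41.6 and 182 CPM in GNA11 Q209L tumours, and at 4.07, 0.443, 223 and 237 CPM in BRAF V600E Bap1 KO tumours. The high libraries were BRAF V600E Bap1 KO replicates 4 and 3 and GNA11 Q209L replicate 2, while BRAF V600E Bap1 KO replicate 2 was the lowest of all 11. Means of 24.8 ± 31.7 CPM in GNA11 Q209L Bap1 KO tumours, 112 ± 99.3 CPM in GNA11 Q209L tumours and 116 ± 132 CPM in BRAF V600E Bap1 KO tumours followed, and no neighbours in this order differed beyond their spread. The log2 fold change of GNA11 Q209L Bap1 KO over GNA11 Q209L was -2.17 ± 1.62 and over BRAF V600E Bap1 KO -2.23 ± 1.41 (SE; edgeR adjusted p = 0.667 and 0.221). GNA11 Q209L Bap1 KO replicate 1, the highest of its genotype, also held keratinocyte transcripts, whose 6 markers summed to 1530 CPM there and to between 0.674 and 5.64 CPM in the 4 others. The part of those cells in its Ngfr level was not tested.

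Gap43, a protein of growing axons that Schwann cell precursors and repair Schwann cells also make, separated the tumours by oncogene, as the CreERT2 line described above also did. It stood at 1.36, 0.276, 0.216, 0.428 and 0.311 CPM in GNA11 Q209L Bap1 KO tumours, at 0.288 and 1.52 CPM in GNA11 Q209L tumours, and at 28.6, 13.8, 43.3 and 64.1 CPM in BRAF V600E Bap1 KO tumours. All 4 BRAF V600E Bap1 KO libraries were above all 7 with GNA11 Q209L, and GNA11 Q209L Bap1 KO and GNA11 Q209L overlapped. The means were 0.518 ± 0.476 CPM in GNA11 Q209L Bap1 KO tumours, 0.902 ± 0.869 CPM in GNA11 Q209L tumours and 37.4 ± 21.4 CPM in BRAF V600E Bap1 KO tumours, in ascending order, and the 2 lower ones did not differ beyond their spread. Its log2 fold change in GNA11 Q209L Bap1 KO over BRAF V600E Bap1 KO was -6.18 ± 0.78 (SE), edgeR adjusted p = 0.000584, which is 72.3-fold in means. With GNA11 Q209L Bap1 KO replicate 1, the library with keratinocyte transcripts and the highest Gap43 level of its genotype, left out that value was -6.90, edgeR adjusted p = 0.000714. GNA11 Q209L over BRAF V600E Bap1 KO gave -5.39 ± 1.12, edgeR adjusted p = 0.0156 and 41.5-fold in means. It did not pass without GNA11 Q209L replicate 1 (-4.62, adjusted p = 0.0712), without GNA11 Q209L replicate 2 (-6.99, adjusted p = 0.0619) or in edgeR on those 2 genotypes alone (adjusted p = 0.0593). Against GNA11 Q209L, GNA11 Q209L Bap1 KO had -0.79 ± 0.83, edgeR adjusted p = 0.783.

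Neuron markers went both ways. Of the 9 tested, 5 fell and 2 rose in GNA11 Q209L Bap1 KO against BRAF V600E Bap1 KO, beside 24.7% and 16.5% of all genes. Nefl, a neurofilament subunit, stood between 0 and 0.173 CPM in GNA11 Q209L Bap1 KO tumours, at 0.0523 and 0.357 CPM in GNA11 Q209L tumours, and at 49.4, 5.32, 21.6 and 94.4 CPM in BRAF V600E Bap1 KO tumours. Stmn2, a tubulin-binding protein of neurons, stood at 0.333 CPM or less in GNA11 Q209L Bap1 KO tumours, at 1.88 and 1.07 CPM in GNA11 Q209L tumours, and at 117, 398, 2.72 and 4.98 CPM in BRAF V600E Bap1 KO tumours. Snap25, a defining synaptic gene, had no count in any library with GNA11 Q209L and stood at 2.66, 1.23, 1.01 and 0 CPM in BRAF V600E Bap1 KO tumours. Nefl and Snap25 passed the filter on low counts only through BRAF V600E Bap1 KO libraries, where they were higher, which limits what their calls show. Those that rose were Tubb3, a neuronal tubulin (440 ± 200 CPM in GNA11 Q209L Bap1 KO tumours against 76.9 ± 56.8 CPM in BRAF V600E Bap1 KO tumours, SD, n = 5 and 4), and Prph, an intermediate filament of peripheral neurons (4.05 ± 1.99 against 0.279 ± 0.175 CPM). Neither Uchl1 (17.3 ± 5.33 against 10.2 ± 6.19 CPM) nor Rbfox3 (0.422 ± 0.316 against 0.158 ± 0.0304 CPM) passed. Summed over the 9 markers, the level was 217 to 765 CPM in GNA11 Q209L Bap1 KO tumours, 154 and 503 CPM in GNA11 Q209L tumours and 196 to 430 CPM in BRAF V600E Bap1 KO tumours, which overlapped, with Tubb3 as most of it in GNA11 Q209L Bap1 KO. The part of nerve fibres or neuron-like cells in the Gap43 result was not tested.

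**Figure D2:**
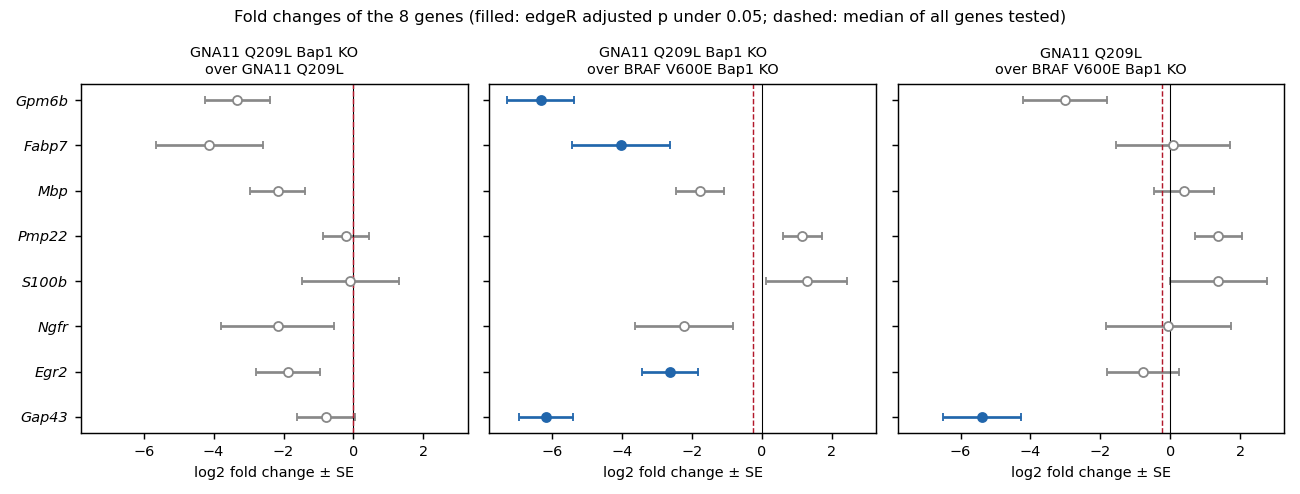
Log2 fold changes of the 8 genes with SE bars in the 3 comparisons, with filled points for an edgeR adjusted p under 0.05 and a dashed line at the median of all genes tested. In GNA11 Q209L Bap1 KO over GNA11 Q209L all 8 points are negative and none is filled, and in GNA11 Q209L Bap1 KO over BRAF V600E Bap1 KO Gpm6b, Fabp7, Egr2 and Gap43 are filled.

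As a set, the 8 genes had log2 fold changes with a median of -2.02 in GNA11 Q209L Bap1 KO over GNA11 Q209L, beside 0 over all genes tested. All 8 values were negative, although leaving out 1 library turned the sign for S100b, for Egr2 (0.03 without GNA11 Q209L replicate 1) and for Gap43 (0.88 without GNA11 Q209L replicate 2). In all, 2 genes, Gpm6b and Fabp7, did not overlap between the groups, both lower, where 9.01% of all genes did so. The unadjusted edgeR p was under 0.05 for 3 of the 8, Gpm6b, Mbp and Fabp7, against 11.4% of all genes. Fabp7 is in both counts, though it passed the filter on low counts only through libraries of the other genotypes. The 8 genes were also chosen with earlier results of these data known, so these counts describe them and test nothing. DESeq2 called 1 of the 8 and limma voom called 0. In GNA11 Q209L Bap1 KO over BRAF V600E Bap1 KO the median was -2.44, beside -0.26 over all genes, and 2 of the 8 were lower without overlap, where 17.2% of all genes were. In GNA11 Q209L over BRAF V600E Bap1 KO the median was 0.01, beside -0.23 over all genes. There Gap43 was lower and Pmp22 higher without overlap, where 22.9% of all genes were lower and 19% higher in this way. The comparisons share libraries, so their values for a gene are not independent.

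The 8 genes did not follow a single profile over the libraries. Likeness was measured as the root mean square difference of log2 CPM after centring each gene over the 11 libraries, so that a smaller value means more alike profiles, and it is given without a test. Mbp and Egr2 were the closest pair, at 0.61 log2 units, followed by Gpm6b and Egr2 at 1.66 and Gpm6b and Gap43 at 1.70. Among 11386 genes whose log2 CPM averaged 2 or more, the closest to Gpm6b were Adamtsl3 (0.60), Ankrd35 (0.78) and Srpx (0.78). The closest to Mbp were Sema4a (0.36), Gna15 (0.41) and Cebpa (0.43), and those to Egr2 were Sema4a (0.57), Spns2 (0.60) and Mbp itself. Pmp22 was closest to Fkbp14 (0.35), Peli3 (0.37) and Lrba (0.37). Gap43 was closest to Cxadr (0.91), Ank3 (0.92) and Aldh3a1 (0.92), and Fabp7 to Gstk1 (0.86), Hlf (1.01) and Eya2 (1.06). S100b and Ngfr had no close match, the nearest being Gpr137b-ps at 1.40 and Igfbp5 at 1.46.

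The wider Schwann cell programme was read from 8 lists of related genes, of which 97 genes were tested. In GNA11 Q209L Bap1 KO over GNA11 Q209L, edgeR called 0 of the 97, and 7 had an unadjusted p under 0.05. DESeq2 called 5, Axl, Emp1, Ntrk2, Olig1 and S100a1, and limma voom called 0. Olig1 was at 0.109 CPM in 1 library and 0 in the 6 others with GNA11 Q209L, so its call there rests on 2 counts. The calls numbered 46 of the 97 in GNA11 Q209L Bap1 KO over BRAF V600E Bap1 KO, beside 41.2% of all genes, and 13 in GNA11 Q209L over BRAF V600E Bap1 KO, beside 15.2%. Of those 13, Gdnf, Maged1 and S100a1 passed without GNA11 Q209L replicate 1, and S100a1 alone passed without GNA11 Q209L replicate 2, so every list call in GNA11 Q209L over BRAF V600E Bap1 KO other than that of S100a1 was lost without 1 GNA11 Q209L library.

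**Figure D3:**
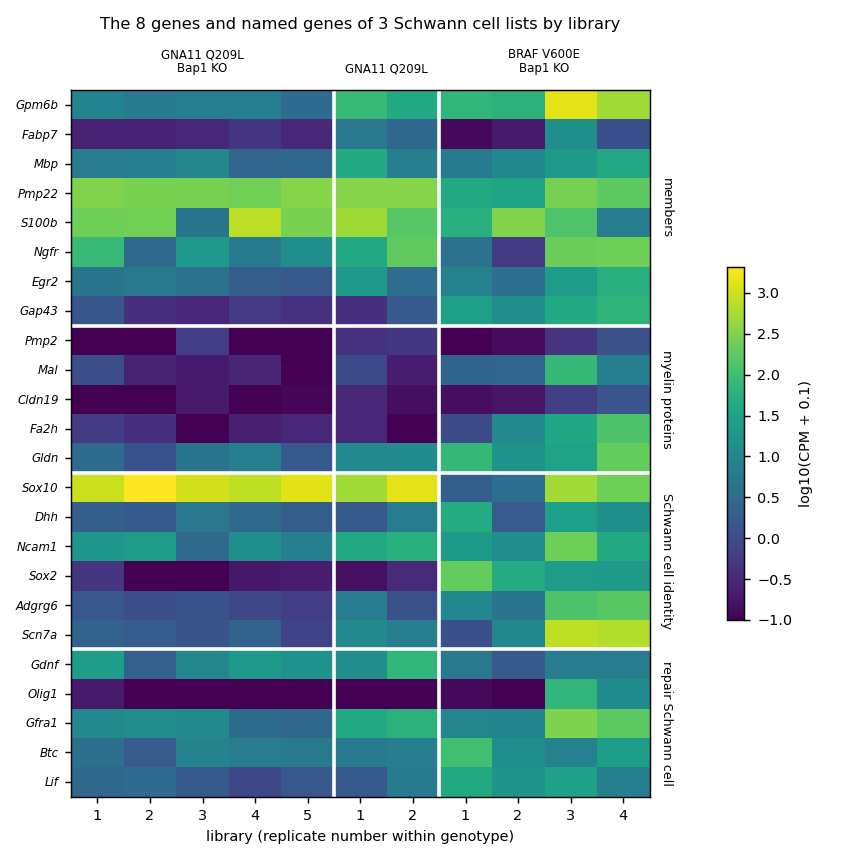
Heat map of log10(CPM + 0.1) for the 8 genes and 16 genes of 3 lists that the text names (myelin proteins, Schwann cell identity and repair Schwann cell), with 1 column per library, GNA11 Q209L Bap1 KO, GNA11 Q209L and BRAF V600E Bap1 KO from left to right. BRAF V600E Bap1 KO replicates 3 and 4 are bright for Gpm6b, Scn7a and Sox10, where replicates 1 and 2 are dark for Sox10 (1.93 and 3.58 CPM).

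Of 14 other myelin genes, 5 fell and 0 rose in GNA11 Q209L Bap1 KO over BRAF V600E Bap1 KO, with a median log2 fold change of -1.82. Over all genes tested, 24.7% fell and 16.5% rose there. The 4 with the smallest p were Gldn, which gathers sodium channels at nodes (-4.54, edgeR adjusted p = 0.00235), Fa2h, which hydroxylates myelin lipids (-7.63, 0.00319), Mal, a proteolipid (-6.34, 0.00951), and Cldn19, a tight junction protein (-4.10, 0.0269). The size of these rested in part on single libraries. Without BRAF V600E Bap1 KO replicate 4, Gldn was at -3.59 and Fa2h at -6.21, Mal was at -3.85 without BRAF V600E Bap1 KO replicate 3 and at -7.71 without GNA11 Q209L Bap1 KO replicate 1, and all 3 still passed. With limma voom Fa2h did not pass (-5.82, adjusted p = 0.094), nor did Cldn19 (-2.35, 0.146). Cldn19 also did not pass when any of GNA11 Q209L Bap1 KO replicates 1, 2, 4 or 5 was left out or when libraries sharing an identifier were summed (adjusted p = 0.0529). It met the filter on low counts only through BRAF V600E Bap1 KO libraries, where it was higher, which limits what its call shows. Pmp2, a lipid-binding protein of peripheral myelin, reached at most 1.09 CPM in any library. Against GNA11 Q209L the list's median in GNA11 Q209L Bap1 KO was -0.64 and its smallest edgeR adjusted p 0.461 (Gldn). In GNA11 Q209L over BRAF V600E Bap1 KO 1 of the 14 fell, Fa2h (-8.53, edgeR adjusted p = 0.0336).

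Of 15 genes of Schwann cell identity, 7 fell and 0 rose in GNA11 Q209L Bap1 KO over BRAF V600E Bap1 KO, beside 24.7% and 16.5% of all genes. The median of the list was -1.53. Those with the smallest p were Sox2, a factor of immature Schwann cells (-9.20, edgeR adjusted p = 0.000544), Adgrg6, the Gpr126 receptor needed for myelination (-6.35, 0.00231), the sodium channel Scn7a (-7.85, 0.00459) and Dhh, the hedgehog ligand of Schwann cells (-3.06, 0.0137). Without BRAF V600E Bap1 KO replicate 1, Sox2 was at -7.92 and Dhh at -2.44. Adgrg6 was at -5.67 without BRAF V600E Bap1 KO replicate 4, Scn7a at -7.15 without BRAF V600E Bap1 KO replicate 3, and Sox2 at -9.99 without GNA11 Q209L Bap1 KO replicate 1, and all 4 kept their calls in these settings. With limma voom, Scn7a (-5.12, adjusted p = 0.167) and Dhh (-2.71, 0.0717) did not pass. Sox2 stood at 0.38 CPM or less in every library with GNA11 Q209L and at 201, 45.1, 23.5 and 21.1 CPM in BRAF V600E Bap1 KO tumours. It passed the filter on low counts only through the BRAF V600E Bap1 KO libraries, where it was high, which limits what its calls show. It also fell in GNA11 Q209L over BRAF V600E Bap1 KO (-9.12, edgeR adjusted p = 0.011), the only gene of the list that did. The list's median in GNA11 Q209L Bap1 KO over GNA11 Q209L was -0.23, with Ncam1 lowest in p (-1.87, edgeR adjusted p = 0.498).

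Sox10 was abundant in all tumours with GNA11 Q209L and in 2 of the 4 BRAF V600E Bap1 KO tumours. It stood at 936, 2100, 1080, 812 and 1320 CPM in GNA11 Q209L Bap1 KO tumours, at 527 and 1400 CPM in GNA11 Q209L tumours, and at 1.93, 3.58, 533 and 232 CPM in BRAF V600E Bap1 KO tumours. BRAF V600E Bap1 KO replicates 1 and 2 were far below every other library, and edgeR did not call GNA11 Q209L Bap1 KO over BRAF V600E Bap1 KO (log2 fold change 2.70, adjusted p = 0.116), whereas DESeq2 and limma voom did. The same BRAF V600E Bap1 KO libraries were the high and the low ones for Ngfr, Pmp22 and Gpm6b, described above. Those libraries also differed in other cells. The keratinocyte markers summed to 126, 258, 12500 and 3360 CPM in BRAF V600E Bap1 KO replicates 1 to 4, and the skeletal muscle markers to 73.5, 181, 11 and 5310 CPM. Their part in these levels was not tested.

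**Figure D4:**
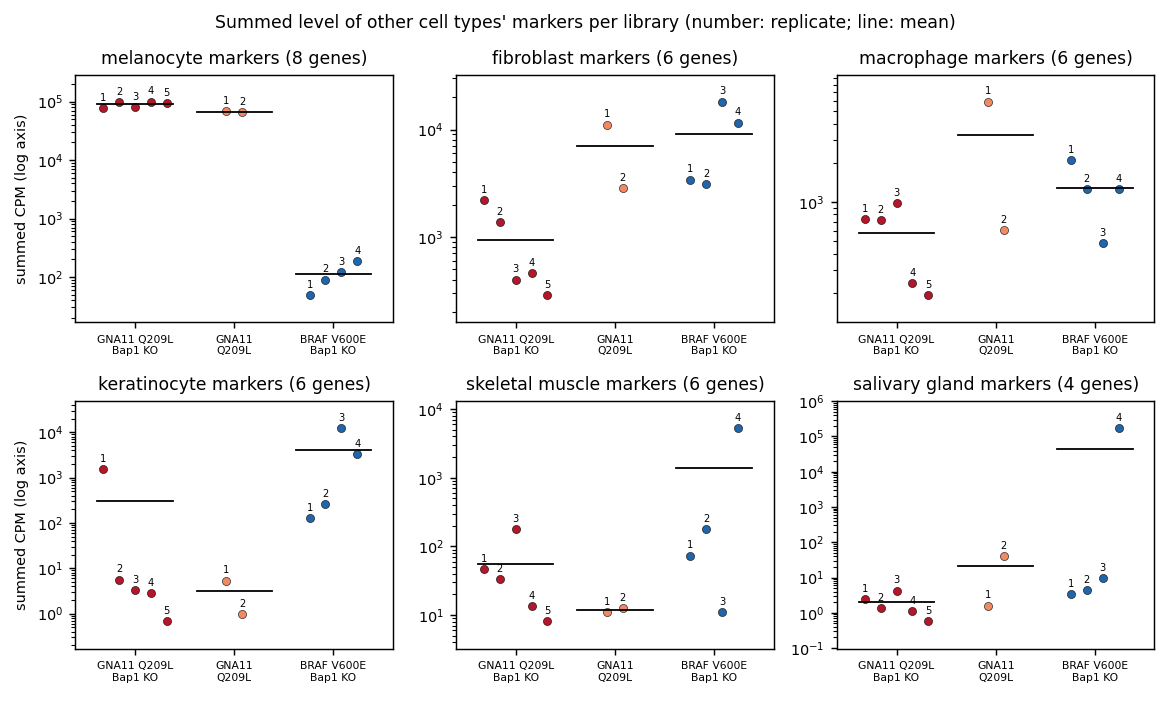
Summed CPM of marker genes of 6 other cell types on log axes, with 1 point per library, the replicate number above it and a line at the mean, for GNA11 Q209L Bap1 KO, GNA11 Q209L and BRAF V600E Bap1 KO from left to right. Melanocyte markers lie at or above 65900 CPM in the 7 libraries with GNA11 Q209L and at or below 188 CPM in BRAF V600E Bap1 KO, and fibroblast markers are lowest in GNA11 Q209L Bap1 KO (286 to 2190 CPM).

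Of 10 tested genes that regulate Egr2 or act with it, 1 passed. Hdac2, a deacetylase that Schwann cells need for myelination, fell in GNA11 Q209L Bap1 KO over BRAF V600E Bap1 KO (-0.81, edgeR adjusted p = 0.0466), where 24.7% of all genes fell. The median of the list was -0.33 there, and Hdac2 was sensitive to single libraries. It did not pass when any of GNA11 Q209L Bap1 KO replicates 1 to 4 or BRAF V600E Bap1 KO replicates 1, 3 or 4 was left out, nor without the BRAF V600E Bap1 KO libraries given as NA in the repeated header (adjusted p = 0.0782). The corepressor Nab2 had a log2 fold change of 1.41 in GNA11 Q209L Bap1 KO over GNA11 Q209L, edgeR adjusted p = 0.497, without overlap. Pou3f1 (Oct6), which precedes Egr2 in Schwann cells, stayed at 0.662 CPM or less in all libraries and was too low to be tested.

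Neuregulin acts on Schwann cells through the receptors Erbb2 and Erbb3. Of 9 genes of this group, 3 fell in GNA11 Q209L Bap1 KO over BRAF V600E Bap1 KO (median -1.28), namely the epidermal growth factor receptor Egfr (-3.75, edgeR adjusted p = 0.00168), the sheddase Adam17 (-1.28, 0.0121) and the ligand Nrg4 (-1.96, 0.0153). For all genes the share that fell there was 24.7%. Nrg4 did not pass without the BRAF V600E Bap1 KO libraries given as NA in the repeated header (-1.40, adjusted p = 0.126). Egfr also fell in GNA11 Q209L over BRAF V600E Bap1 KO (-2.83, edgeR adjusted p = 0.0453). The receptor Erbb3 itself was not called (-2.05, edgeR adjusted p = 0.177). It stood at 104, 23.4, 26.3, 116 and 33.9 CPM in GNA11 Q209L Bap1 KO tumours, at 64.1 and 76.3 CPM in GNA11 Q209L tumours, and at 2.85, 11.4, 698 and 296 CPM in BRAF V600E Bap1 KO tumours. Only BRAF V600E Bap1 KO replicates 3 and 4 exceeded 116 CPM. The median in GNA11 Q209L Bap1 KO over GNA11 Q209L was -0.21, and none was called.

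Among 14 neurotrophins and partners of the p75 receptor, 3 rose and 5 fell in GNA11 Q209L Bap1 KO over BRAF V600E Bap1 KO, with a median of 0.05. Of all genes, 16.5% rose and 24.7% fell. The BDNF receptor Ntrk2 fell (-8.19, edgeR adjusted p = 0.00104). Sortilin, Sort1, which binds proneurotrophins together with p75, rose (4.92, edgeR adjusted p = 0.00449), as did Maged1, a p75-binding adaptor (1.69, 0.00464). Sort1 stood between 1590 and 2170 CPM in GNA11 Q209L Bap1 KO tumours, at 735 and 932 CPM in GNA11 Q209L tumours, and at 3.17, 10, 106 and 124 CPM in BRAF V600E Bap1 KO tumours. Both also rose in GNA11 Q209L over BRAF V600E Bap1 KO (Sort1 3.78, edgeR adjusted p = 0.0365, and Maged1 1.37, 0.0471), while the neurotrophin gene Ntf5 fell (0.0399), with no count in either GNA11 Q209L library and 0.27, 0.136, 1.01 and 3.24 CPM in BRAF V600E Bap1 KO tumours. Ntf5 passed the filter on low counts through BRAF V600E Bap1 KO libraries, where it was higher, which limits what that call shows. Sort1 was at 5.52 in GNA11 Q209L Bap1 KO over BRAF V600E Bap1 KO without BRAF V600E Bap1 KO replicate 4. Maged1 did not pass in GNA11 Q209L Bap1 KO over BRAF V600E Bap1 KO without the BRAF V600E Bap1 KO libraries given as NA in the repeated header (adjusted p = 0.0517). Ntrk2 also had the smallest p of the list in GNA11 Q209L Bap1 KO over GNA11 Q209L (-4.21, edgeR adjusted p = 0.239), at 0.0543 to 0.442 CPM against 5.55 and 0.981 CPM.

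Of 8 genes of the repair Schwann cell, 6 fell in GNA11 Q209L Bap1 KO over BRAF V600E Bap1 KO (median -3.25), beside 24.7% of all genes. The 4 with the smallest p were the cytokine Lif (-3.66, edgeR adjusted p = 0.0025), the growth factor Btc (-2.84, 0.0118), the GDNF receptor Gfra1 (-3.91, 0.0131) and the transcription factor Olig1 (0.0139). Olig1 had 2 counts in all GNA11 Q209L Bap1 KO libraries together and stood at 0.0225, 0, 70.2 and 12.1 CPM in BRAF V600E Bap1 KO tumours, and it did not pass with GNA11 Q209L Bap1 KO replicate 1 left out (adjusted p = 0.0574). It met the filter on low counts only through BRAF V600E Bap1 KO libraries in which it was high, which limits what its call shows. Btc was at -1.61 without BRAF V600E Bap1 KO replicate 1 and Gfra1 at -2.97 without BRAF V600E Bap1 KO replicate 3, both still past the threshold, whereas with limma voom Gfra1 (-2.90, adjusted p = 0.101) and Olig1 (adjusted p = 0.348) did not pass. Gdnf, a growth factor of repair Schwann cells, rose in GNA11 Q209L over BRAF V600E Bap1 KO (3.10, edgeR adjusted p = 0.0401), at 14.3 and 69.7 CPM against 5.19, 1.5, 6.51 and 6.43 CPM. Here the median in GNA11 Q209L Bap1 KO over GNA11 Q209L was -1.19, with Gfra1 lowest in p (-2.64, edgeR adjusted p = 0.404).

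Of 10 genes of the neural crest and of dedifferentiated melanoma, 8 fell and 0 rose in GNA11 Q209L Bap1 KO over BRAF V600E Bap1 KO (median -3.19). The shares of all genes were 24.7% and 16.5%. The receptor kinase Axl stood at 60.6, 50.5, 55.2, 38.5 and 17.4 CPM in GNA11 Q209L Bap1 KO tumours, at 323 and 121 CPM in GNA11 Q209L tumours, and at 1240, 657, 476 and 343 CPM in BRAF V600E Bap1 KO tumours. The 3 genotypes did not overlap (log2 fold change of GNA11 Q209L Bap1 KO over BRAF V600E Bap1 KO -3.93, edgeR adjusted p = 0.000679, and over GNA11 Q209L -2.32, edgeR adjusted p = 0.196). Wnt5a, a ligand of noncanonical Wnt signalling (-4.24, edgeR adjusted p = 0.00216), the ectonucleotidase Nt5e (-4.15, 0.0078) and the neurturin receptor Gfra2 (-5.09, 0.00848) came next in GNA11 Q209L Bap1 KO over BRAF V600E Bap1 KO. With GNA11 Q209L Bap1 KO replicate 1 left out, Wnt5a was at -5.06, Nt5e at -5.78 and Gfra2 at -6.40, and Gfra2 was at -4.17 without BRAF V600E Bap1 KO replicate 3, all still past the threshold. Wnt5a was the 1 gene of the list called in GNA11 Q209L over BRAF V600E Bap1 KO (-4.43, edgeR adjusted p = 0.0264). None was called in GNA11 Q209L Bap1 KO over GNA11 Q209L, where the median was -1.

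Protein relatives of the 8 genes did not all move with them. Of 17 tested, 3 rose and 5 fell in GNA11 Q209L Bap1 KO over BRAF V600E Bap1 KO (median -0.77), beside 16.5% and 24.7% of all genes. The Pmp22 relative Emp1 stood between 71.7 and 185 CPM in GNA11 Q209L Bap1 KO tumours, at 380 and 334 CPM in GNA11 Q209L tumours, and at 1340, 723, 818 and 867 CPM in BRAF V600E Bap1 KO tumours. It fell by 3.03 on the log2 scale in GNA11 Q209L Bap1 KO over BRAF V600E Bap1 KO (edgeR adjusted p = 0.000265), whereas its relative Emp3 rose by 1.90 (0.0082), a call lost without the BRAF V600E Bap1 KO libraries given as NA in the repeated header (adjusted p = 0.0663). Among S100 proteins, S100a10 fell (-2.11, edgeR adjusted p = 0.00143) and S100a1 rose (2.22, 0.00172). S100a1 also rose in GNA11 Q209L over BRAF V600E Bap1 KO (3.75, edgeR adjusted p = 0.00109), at 704 and 324 CPM against 50.5, 31.8, 26.5 and 43.8 CPM, and so did Emp3 (1.73, 0.0476). Marcksl1 (-1.45, edgeR adjusted p = 0.04) and S100a10 (-1.5, 0.046) fell there. Both Emp1 (-1.63, edgeR adjusted p = 0.164) and S100a1 (-1.53, 0.222), with the smallest p of the list in GNA11 Q209L Bap1 KO over GNA11 Q209L, were lower there without overlap.

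**Figure D5:**
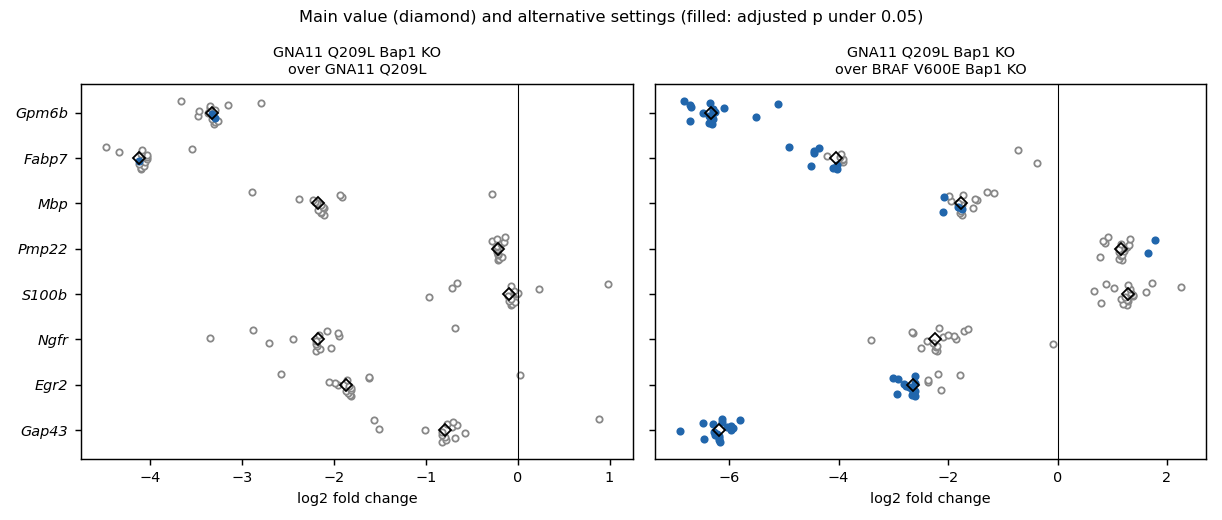
Log2 fold changes of the 8 genes in 2 comparisons under the main setting (diamond) and each alternative setting (circles, filled where the adjusted p is under 0.05). Gpm6b and Gap43 stay past the threshold in GNA11 Q209L Bap1 KO over BRAF V600E Bap1 KO in every alternative, and Fabp7 moves to -0.72 without BRAF V600E Bap1 KO replicate 3 and to -0.38 with limma voom.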

How the data were processed

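The authors deposited 1 table of estimated counts per gene for 11 libraries, without normalisation, and per the submitters' processing notes reads were aligned with STAR to mm9. The sources used here do not give the counting program, the annotation or the use of strand, so reads of overlapping or antisense genes may be mixed. The deposited expected counts are whole numbers and were used as they stand. Of 18769 lines with an ID, 7 identical repeats and 6 transgene lines were left out. Genotypes came from the labels. The main test was edgeR 4.0.16 (R 4.3.3), quasi-likelihood with TMM scaling, edgeR's default filter by group, all 11 libraries and genotype as the only term. It was tested on simulated data. Their spread between libraries was set lower than that estimated here, so that check does not cover spreads as wide as these. Two-sided p-values were adjusted by Benjamini-Hochberg over 17350 genes at 0.05, and the SE is the fold change over the root of its F value. DESeq2 1.42.0 and limma voom (limma 3.58.1) were alternatives, with other scalings, no filter, 2 genotypes alone, libraries sharing an identifier summed and each library left out. The 8 genes and all lists (99 of 101 entries of 8 lists and 67 of 72 of 11 marker lists matched) were chosen with earlier results of these data known. Named are all 8 genes, up to 4 genes per list and comparison with the smallest p, and the 3 closest in profile. Further list genes (Pmp2, Sox10, Pou3f1, the marker genes) were named after their values were seen, and some list genes are counted but not reported here by name. Promoter sequences are RefSeq's (GRCm38.p6), with entries for 6 of the 8 genes.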

Additional observations from a re-analysis of the deposited data

Results flagged for a closer look

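In 4 of 16 sets of values, the 8 genes in the 2 genotypes with 4 or more libraries, the highest library stood further from the others than Dixon's 95% limit allows. For normally distributed values chance passes that limit, at either end, in about 1 in 20 groups, and CPM values are skewed, so the rate for these sets is not known. Fabp7 reached 0.381 CPM in GNA11 Q209L Bap1 KO replicate 4, with a gap of 0.755 of the genotype's range to the next library, and this value is a few counts above the floor. Fabp7 reached 14.0 CPM in BRAF V600E Bap1 KO replicate 3, with a gap of 0.926 of the range, and that library decides the Fabp7 call described above. Ngfr stood at 80.1 CPM and Gap43 at 1.36 CPM in GNA11 Q209L Bap1 KO replicate 1, with gaps of 0.771 and 0.814 of the range, and both are in the library that also held keratinocyte transcripts. What sets these values apart was not tested.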

How the results depend on the processing

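Over the 8 genes and 3 comparisons, 331 of 380 alternative values kept their direction and side of the threshold, 16 lost a call, 10 gained one, 23 moved without a call and 0 reversed a called direction. Gpm6b and Gap43 in GNA11 Q209L Bap1 KO over BRAF V600E Bap1 KO kept their calls in all 18 alternatives each. The number of the 8 genes that fell there was 4, against 2 with limma voom (which called 1 as higher), and 2 to 5 with 1 library left out (0 to 1 higher). In GNA11 Q209L Bap1 KO over GNA11 Q209L, 0 fell, against 1 with DESeq2 and 2 with the 2 genotypes alone. In GNA11 Q209L over BRAF V600E Bap1 KO, 1 fell, against 2 with DESeq2, 0 with the 2 genotypes alone and 0 to 1 with 1 library left out. Over all genes, GNA11 Q209L Bap1 KO over GNA11 Q209L gave 5 calls, against 3 with median-of-ratios scaling, 3 with no filter, 443 with DESeq2, 64 with the 2 genotypes alone, 0 with libraries sharing an identifier summed and 0 to 1 with 1 library left out. GNA11 Q209L Bap1 KO over BRAF V600E Bap1 KO gave 7146, against 5448 to 7176 with 1 library left out and 3571 without the libraries given as NA. GNA11 Q209L over BRAF V600E Bap1 KO gave 2637, against 5425 with DESeq2, 417 with the 2 genotypes alone, 265 to 2867 with 1 library left out and 838 without the libraries given as NA. List genes called were 0 in the first comparison (5 with DESeq2), 46 in the second (36 to 47 with 1 library left out) and 13 in the third (37 with DESeq2, 2 with the 2 genotypes alone, 6 without the libraries given as NA, 1 to 13 with 1 library left out). The settings with fewer libraries have fewer samples, and the other causes were not tested. Scaling to total counts moved the median of all genes in GNA11 Q209L Bap1 KO over BRAF V600E Bap1 KO to -0.64 and the share of calls that were higher to 23.4%, against -0.26 and 40.1%. In GNA11 Q209L over BRAF V600E Bap1 KO it moved them to -0.66 and 35%, against -0.23 and 61%. Leaving out the libraries given as NA was chosen after seeing the data. No paired analysis was possible because the replicate numbers follow accession order and pair no samples. A lone GNA11 Q209L library was assumed to vary like the other genotypes. Fabp7 in GNA11 Q209L Bap1 KO lies near the floor of 3 counts, which limits what its differences can show.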
